A study of Mus musculus with 49 samples.

Results

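The 7 genes described here encode the PIM kinases (*Pim1*, *Pim2*, and *Pim3*) and the JAK kinases (*Jak1*, *Jak2*, *Jak3*, and *Tyk2*) of the mouse, taken by symbol from the 23992 gene symbols of the deposited RNA-seq tables, with the longest transcript of each. The study asked what tyrosine phosphorylation of STAT5A and STAT5B contributes to the response of CD8+ T cells to IL-2. Splenic CD8+ T cells of C57BL/6J mice, isolated with a CD8+ T cell kit, came from a *Stat5a* line and a *Stat5b* line. In each line, knock-in (KI) cells carried a STAT5 protein whose C-terminal tyrosine was replaced by phenylalanine, and wild-type (WT) cells came from littermates. Cells were harvested before culture with IL-2 (0 hr) or after 4, 24, or 48 hr with 500 IU/ml of recombinant human IL-2, which gives 16 groups of 3 libraries. The alleles were made with CRISPR-Cas9. The study's methods describe homozygous KI mice and adult mice of both sexes. The labels give neither zygosity, age, nor the number of mice for an RNA-seq library, and p-values therefore measure the spread between these libraries. The third library of the 4 hr group of *Stat5a* KI cells held 1028515 reads on the transcripts used, 5.68% of its mapped reads. It was left out, so the values rest on 47 libraries with 17369112 to 60200653 reads each (median 41410666). Fits with all 48 libraries, given below as another setting, take it back in. There it enters the mean of its group and the shared estimate of the spread.

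One more library stood apart, and is called the low-exon library below. In it, replicate 2 of the 4 hr WT group in the *Stat5a* line, 44.86% of the mapped reads fell on the transcripts used, against a median of 75.29% over the 47 libraries. It held the lowest RPKM (mapped reads scaled to transcript length and to sequencing depth) of 5 of the 7 genes, among them *Pim3* at 1.43 (6.53 or more in the other libraries), *Jak3* at 4.76 (12.9 or more), and *Tyk2* at 6.39 (13.7 or more). It was kept, and the calls that turn on it are given with and without it. The targeted genes were expressed throughout, *Stat5a* at 9.96 to 31.1 RPKM (median 21.0) and *Stat5b* at 14.5 to 52.5 RPKM (median 28.5), each lowest in that library. At 0 hr the KI-to-WT log2 fold change of the gene carrying the allele was 0.01 for *Stat5a* and −0.17 for *Stat5b*, with adjusted p of 0.977 and 0.291 from edgeR's quasi-likelihood test. The KI alleles change an amino acid, so mRNA levels do not check them.

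JAK kinases sit on the cytoplasmic tails of cytokine receptors and phosphorylate the receptor and STAT proteins when a cytokine binds. At the IL-2 receptor, JAK1 is held by the β chain and JAK3 by the common γ chain, while JAK2 and TYK2 serve other receptors, such as those for interferons and IL-12. PIM kinases are serine/threonine kinases without a known regulatory domain, so their activity follows the amount of protein, and their transcription is a textbook response to cytokines that use JAKs and STATs. In lymphocytes they favor survival and growth, for example through phosphorylation of BAD and of inhibitors of the cell cycle.

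In GRCm38, *Pim1* lies on chromosome 17 (29490785 to 29496111), *Pim2* on chromosome X (7878306 to 7883432), *Pim3* on chromosome 15 (88862194 to 88865726), *Jak1* on chromosome 4 (101151974 to 101265282), *Jak2* on chromosome 19 (29251803 to 29313095), *Jak3* on chromosome 8 (71676383 to 71690577), and *Tyk2* on chromosome 9 (21104068 to 21131393). The counts are of reads on exons. Other RefSeq genes overlap the spans of *Pim1*, *Pim3*, *Jak1*, and *Jak3*, the last of which shares its place with *Insl3*. Whether the counting used strand is not given in the sources used here, so reads of overlapping genes may not be told apart.

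The promoters of the PIM genes are shown because these genes carry the largest differences below. They run 5′ to 3′ on the plus strand from 250 bases before to 50 bases after the RefSeq start (GRCm38.p6), at chr17:29490535-29490834 for *Pim1*, chrX:7878056-7878355 for *Pim2*, and chr15:88861944-88862243 for *Pim3*. Capitals mark matches, on either strand, to the octamer ATGCAAAT or to CCAAT.
Pim1: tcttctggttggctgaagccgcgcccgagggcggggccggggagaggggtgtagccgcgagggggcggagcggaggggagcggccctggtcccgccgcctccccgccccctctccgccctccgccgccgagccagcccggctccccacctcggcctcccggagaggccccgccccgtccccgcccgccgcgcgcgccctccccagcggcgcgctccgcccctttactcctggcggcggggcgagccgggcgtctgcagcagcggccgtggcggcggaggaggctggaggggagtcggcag
Pim2: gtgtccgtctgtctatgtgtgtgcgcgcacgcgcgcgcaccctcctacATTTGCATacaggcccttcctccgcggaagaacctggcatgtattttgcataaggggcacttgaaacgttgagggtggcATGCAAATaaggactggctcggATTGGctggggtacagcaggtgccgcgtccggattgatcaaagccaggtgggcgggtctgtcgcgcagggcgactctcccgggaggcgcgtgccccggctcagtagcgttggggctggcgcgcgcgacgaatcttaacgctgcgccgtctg
Pim3: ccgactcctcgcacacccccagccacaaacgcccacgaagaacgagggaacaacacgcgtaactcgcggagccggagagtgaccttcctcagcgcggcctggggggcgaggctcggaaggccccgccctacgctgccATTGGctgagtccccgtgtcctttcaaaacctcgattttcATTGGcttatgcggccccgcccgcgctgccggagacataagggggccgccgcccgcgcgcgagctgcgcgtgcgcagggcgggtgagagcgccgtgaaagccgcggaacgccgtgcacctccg
*Pim2* held 2 octamers, one on each strand, and 1 CCAAT, *Pim3* held 2 CCAAT, and *Pim1* held none of these in its window. Of the 32544 RefSeq promoters of this length, 1.75% held an octamer and 37.4% a CCAAT. The GAS motif of STAT proteins (TTCNNNGAA, which reads the same on both strands) was in none of the 3 windows and in 8.33% of all promoters. These windows were 81.3% (*Pim1*), 62.7% (*Pim2*), and 69.0% (*Pim3*) G or C, against a median of 53.0% over all promoters. *Pim1* has a second RefSeq start, whose window held an E-box (CACGTG, on both strands alike, in 7.17% of promoters). Of the JAK genes, *Jak1* held a CRE (TGACGTCA, likewise, in 1.8% of promoters), *Jak1* and *Tyk2* held matches to CCAAT, and none held a GAS motif. No matches overlapped, and a match is a description of letters.

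All 6 T cell markers examined were abundant in every library, with *Cd8a* at an RPKM of 81.0 to 343. Markers of other cells were present too and differed between genotypes. The 7 B cell markers summed to an RPKM of 11.1, 12.9, and 13.5 in the *Stat5b* line WT libraries at 48 hr and to 120.5, 122.9, and 126.3 in the KI libraries, with *Cd79a* the most abundant in KI cells (mean 44.8). At 0 hr these sums were 53.9 to 61.1 in WT and 216 to 222 in KI. In the *Stat5a* line they were 13.1, 31.2, and 38.7 in WT and 97.9, 109.8, and 117.7 in KI at 48 hr. Sums of 4 erythroid markers at 48 hr in the *Stat5b* line were 2.56, 3.20, and 4.82 in WT and 64.0, 97.3, and 119.5 in KI, with *Hbb-bs* the most abundant in KI cells (mean 50.6, a globin gene with near-identical copies whose reads may be split) and 1 of the 4 at 0 in the WT group. Sums of 6 macrophage and monocyte markers were 3.15, 3.16, and 4.12 in WT and 50.7, 65.4, and 80.9 in KI, led by *Lyz2* in KI cells (mean 41.0). Of 3 CD4 T cell, 7 B cell, 6 macrophage and monocyte, 3 neutrophil, 4 NK cell, 5 dendritic cell, and 4 erythroid markers tested, 3, 7, 6, 3, 2, 5, and 4 passed as higher in *Stat5b* KI cells at 48 hr, and 2, 7, 5, 1, 1, 4, and 0 in *Stat5a* KI cells, while 1 NK cell marker was lower in each line. Among all genes at 48 hr, 33.1% were higher and 30.5% lower in *Stat5b* KI cells, and 21.5% and 22.8% in *Stat5a* KI cells. Of the 6 T cell markers, 5 were higher in KI cells of each line at 48 hr, while at 0 hr 6 were lower in *Stat5b* KI and 2 in *Stat5a* KI cells. At 0 hr 9.26% of all genes were lower in *Stat5b* KI and 0.88% in *Stat5a* KI cells. At 48 hr with IL-2 all tested B cell, macrophage and monocyte, neutrophil, dendritic cell, CD4 T cell, and erythroid markers were lower in WT cells. This held in both lines, where 37.7% (*Stat5a*) and 36.8% (*Stat5b*) of all genes were lower. Median log2 changes were −2.69 and −3.01 for B cell and −4.74 and −4.36 for macrophage and monocyte markers. Of 4 NK cell markers, 3 and 2 were higher and 0 lower. Fewer cells of a type and less RNA per cell cannot be told apart in such bulk samples, and the part of these markers in the results below was not tested.

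Before IL-2, *Pim1* and *Jak1* were the most abundant of the 7 mRNAs per kilobase. In WT cells of the *Stat5b* line at 0 hr, the mean RPKM was 188 ± 5.06 for *Jak1*, 161 ± 6.83 for *Pim1*, 40.1 ± 1.96 for *Jak3*, 37.8 ± 2.77 for *Pim3*, 34.5 ± 0.642 for *Pim2*, 30.0 ± 1.40 for *Jak2*, and 19.0 ± 0.714 for *Tyk2* (SD, n = 3). In that order only the libraries of *Jak3* and *Pim3* overlapped. In WT cells of the *Stat5a* line the order was *Pim1* (243), *Jak1* (174), *Pim3* (41.5), *Jak2* (29.6), *Pim2* (27.8), *Jak3* (25.4), and *Tyk2* (15.1), and *Pim1* overlapped *Jak1*, *Jak2* overlapped *Pim2*, and *Pim2* overlapped *Jak3*. After 48 hr with IL-2, *Pim1*, *Jak1*, and *Pim2* led in the WT cells of both lines at a mean RPKM of 100.88 to 133.5, followed by *Jak3* at 27.7 and 29.8, and the other members lay at 14.1 to 17.0. *Pim3* thus went from above *Tyk2* to a level whose libraries overlapped those of *Tyk2*.

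The PIM genes differed in their response to IL-2 in WT cells. *Pim2* mRNA rose at every time in both lines, *Pim3* mRNA fell at every time in both lines, and *Pim1* mRNA fell or did not pass the test, depending on the line and time. Changes are log2 fold changes with SE from edgeR's quasi-likelihood test on the counts, with p-values adjusted by Benjamini-Hochberg over all 15566 genes tested, and a gene passes at an adjusted p of at most 0.05. All 7 members passed the filter on low counts. IL-2 moved much of the transcriptome, and counts of members are to be read against that. Markers of other cells fell in the same WT cells, as given above, and their part in the falls of members was not tested. At 4, 24, and 48 hr, 6, 5, and 5 of the 7 genes passed in WT cells of the *Stat5a* line, where 58.4%, 59.0%, and 71.7% of all genes passed. In the *Stat5b* line 5, 7, and 7 of the 7 passed, against 49.5%, 59.6%, and 69.9% of all genes.

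*Pim2* in WT cells of the *Stat5b* line had an RPKM of 34.1, 35.3, and 34.2 at 0 hr, 96.7, 98.1, and 112.96 at 4 hr, 143.3, 146.5, and 130.9 at 24 hr, and 106.8, 97.1, and 98.7 at 48 hr. Every library with IL-2 lay above every library without it, and the highest values were at 24 hr. The change was 1.40 ± 0.10 at 4 hr, 1.83 ± 0.11 at 24 hr, and 1.37 ± 0.10 at 48 hr (log2, SE), with adjusted p of 8.37e-14, 3.24e-17, and 2.27e-14 in edgeR's test. The *Stat5a* line WT cells had 27.8, 23.0, and 32.7 at 0 hr, 108.3, 44.1, and 98.9 at 4 hr, 149.5, 132.4, and 147.4 at 24 hr, and 113.997, 111.1, and 107.3 at 48 hr. The value of 44.1 is from the low-exon library, and it still lay above all libraries at 0 hr. Changes in that line were 1.57, 2.19, and 1.79 (4.57-fold at 24 hr), and the 4 hr change was 1.72 without that library.

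*Pim3* went the other way. Its RPKM in WT cells of the *Stat5b* line was 41.0, 35.9, and 36.5 at 0 hr, 11.8, 10.6, and 11.2 at 4 hr, 13.5, 13.9, and 12.7 at 24 hr, and 15.8, 14.9, and 16.5 at 48 hr. The lowest levels were at 4 hr, with a change of −1.93 ± 0.22 (adjusted p = 2.18e-09, edgeR's quasi-likelihood test), and the libraries at 48 hr lay above those at 4 hr. In the *Stat5a* line WT cells had 39.2, 48.7, and 36.6 at 0 hr, 10.0, 1.43, and 10.2 at 4 hr, 10.0, 9.05, and 11.7 at 24 hr, and 13.1, 14.6, and 14.6 at 48 hr. The changes were −2.60, −2.19, and −1.77, with the first at −2.21 when the low-exon library was left out.

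*Pim1*, the founding member of the family, did not rise in any comparison with 0 hr that passed the test. Its RPKM in WT cells of the *Stat5a* line was 240.01, 342.2, and 148.2 at 0 hr, 160.2, 62.6, and 168.6 at 4 hr, 113.01, 115.9, and 132.5 at 24 hr, and 122.3, 129.1, and 128.1 at 48 hr. The 0 hr libraries were spread more than 2-fold and overlapped those at 4 hr, but lay above all libraries at 24 and 48 hr. Changes were −0.94 ± 0.16 at 4 hr (−0.75 without the low-exon library), −1.19 ± 0.16 at 24 hr, and −1.16 ± 0.16 at 48 hr. The 4 hr call was lost when only the groups compared were fitted (adjusted p = 0.0789, edgeR). Without the 0 hr library at 342.2 the changes were −0.60, −0.85, and −0.82, and without the one at 148.2 they were −1.16, −1.43, and −1.34. In the *Stat5b* line WT cells held 164.2, 152.7, and 164.9 at 0 hr, 202.02, 184.9, and 178.8 at 4 hr, 131.8, 133.2, and 134.8 at 24 hr, and 127.9, 130.1, and 142.6 at 48 hr. The libraries at 4 hr lay above those at 0 hr on the RPKM scale, while the fitted change was 0.06 ± 0.16 (adjusted p = 0.79, edgeR). The falls of −0.46 (adjusted p = 0.0116) and −0.44 (adjusted p = 0.012) at 24 and 48 hr in edgeR's test were small, and each lost its call when any 1 of 4 WT libraries of the groups compared was left out (adjusted p up to 0.0717 and 0.0963).

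**Figure D1:**
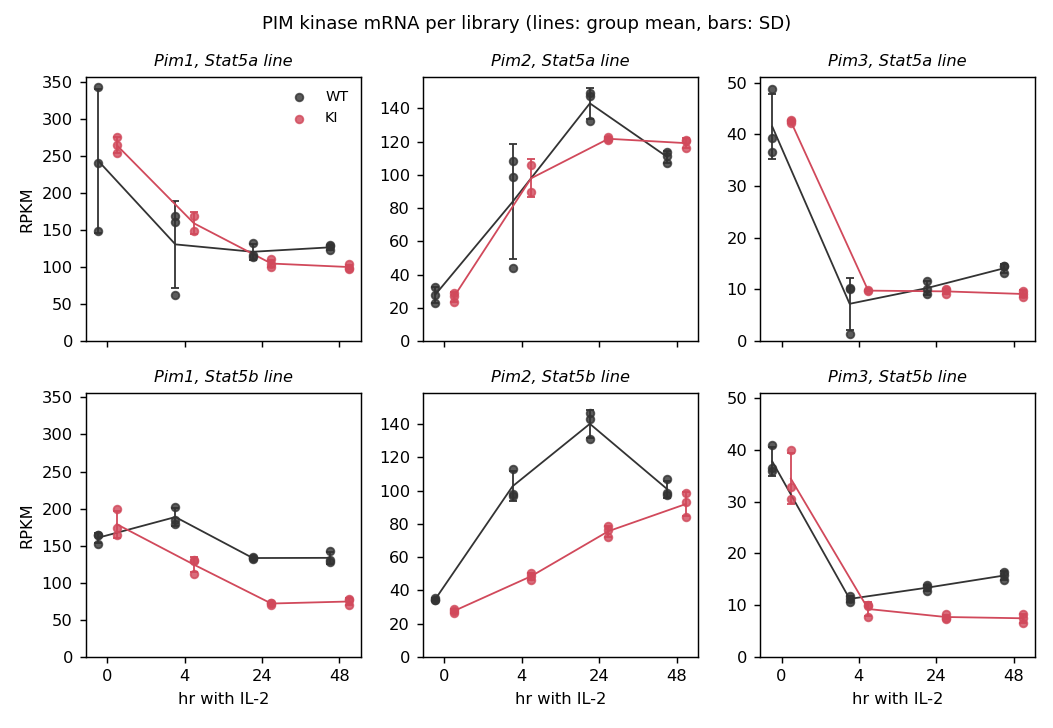
RPKM of *Pim1*, *Pim2*, and *Pim3* (y axis, each gene on its own linear scale) at 0, 4, 24, and 48 hr with IL-2 (x axis, not to scale) in the *Stat5a* line (top) and the *Stat5b* line (bottom). Points are libraries, lines join group means, and bars are SD (n = 3, or 2 in *Stat5a* KI cells at 4 hr). *Pim2* in WT cells lies at 23.0 to 35.3 at 0 hr and at 130.9 to 149.5 at 24 hr, *Pim3* is lower after IL-2, and the *Stat5b* KI points lie below WT for *Pim1* and *Pim2* at 4 and 24 hr.

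As a result of these opposite courses, the mix of PIM mRNA changed. In WT cells of the *Stat5b* line, *Pim1* made up 68.9% ± 0.934 of the summed PIM RPKM at 0 hr, *Pim3* 16.2% ± 0.835, and *Pim2* 14.8% ± 0.798 (SD, n = 3). At 24 hr *Pim2* held 48.9% ± 1.60, *Pim1* 46.5% ± 1.69, and *Pim3* 4.65% ± 0.0963. The *Stat5a* line WT cells went from 76.3% *Pim1* and 9.88% *Pim2* at 0 hr to 44.0% and 52.3% at 24 hr. At 48 hr the share of *Pim2* was 40.4% ± 2.19 in WT and 52.8% ± 0.757 in KI cells of the *Stat5b* line, and 44.1% ± 1.44 and 52.2% ± 0.774 in the *Stat5a* line, with no overlap of the libraries of KI and WT in either line. The sum over the 3 genes at 48 hr was a mean RPKM of 250.0 in WT and 174 in KI cells of the *Stat5b* line, and 251 and 228 in the *Stat5a* line.

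**Figure D2:**
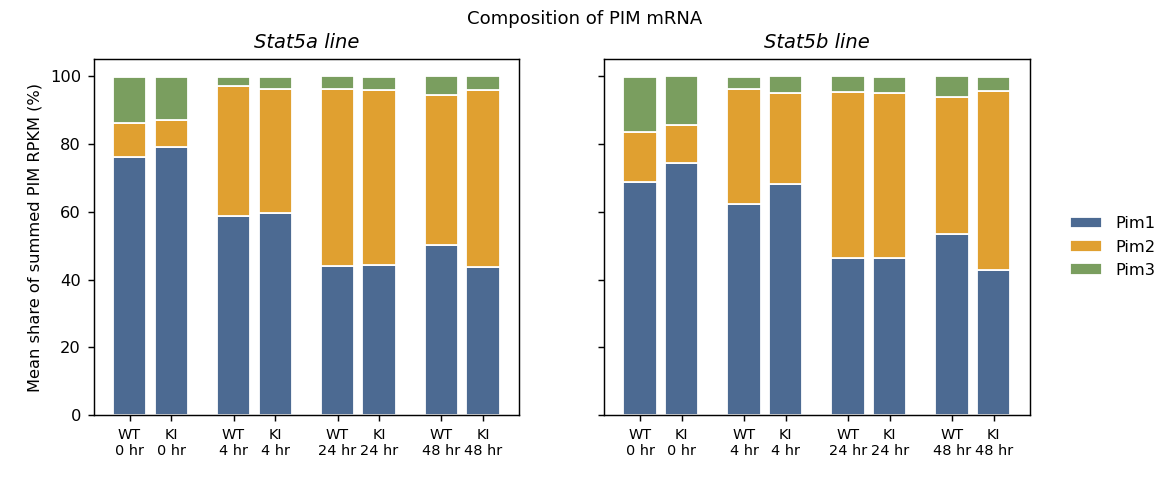
Mean share of the summed PIM RPKM held by *Pim1*, *Pim2*, and *Pim3* (stacked bars, percent, from 0) in WT and KI cells at each time, for each line. *Pim1* holds most of the signal at 0 hr (68.9% to 79.3%), and *Pim2* holds 48.7% to 52.3% at 24 hr.

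*Jak1*, *Jak2*, and, in part, *Jak3* fell with IL-2 in WT cells. B cell, macrophage and monocyte, neutrophil, dendritic cell, and erythroid markers fell in the same cells, and their part in these falls was not tested. *Jak1* had an RPKM of 185.4, 193.7, and 184.6 at 0 hr and of 117.4, 114.3, and 124.02 at 48 hr in WT cells of the *Stat5b* line, and of 167.1, 164.2, and 191.4 and 129.5, 124.01, and 122.9 in those of the *Stat5a* line. No library at 48 hr overlapped those at 0 hr in either line, and the decline went on through all times, with changes of −0.33, −0.63, and −0.84 (SE 0.06 each) in the *Stat5b* line and −0.30, −0.46, and −0.68 in the *Stat5a* line. The 4 hr calls of both lines and the 24 hr call of the *Stat5a* line were lost in other settings that leave out no further library. *Jak2*, the kinase of receptors such as that for interferon-γ, fell further. Its RPKM went from 31.6, 29.0, and 29.4 at 0 hr to 16.2, 15.8, and 17.4 at 48 hr in the *Stat5b* line (log2 fold change −1.04 ± 0.07) and from 28.2, 31.6, and 29.1 to 17.1, 16.9, and 17.2 in the *Stat5a* line (−1.005 ± 0.07). At 4 hr its change in the *Stat5b* line, −0.17 (adjusted p = 0.0336, edgeR's quasi-likelihood test), lost its call without any 1 of 27 libraries and turned to 0.01 with limma on RPKM.

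*Jak3*, the partner of the common γ chain, dipped at 4 hr. In WT cells of the *Stat5b* line the RPKM was 41.2, 41.4, and 37.9 at 0 hr, 15.5, 15.9, and 16.4 at 4 hr, 29.5, 34.8, and 26.0 at 24 hr, and 28.5, 29.0, and 31.8 at 48 hr. The 4 hr libraries lay below all others, and the later ones stayed below 0 hr. Changes were −1.51, −0.60, and −0.61 (SE 0.13 each). In the *Stat5a* line the RPKM was 22.4, 21.9, and 32.0 at 0 hr, 13.4, 4.76, and 12.9 at 4 hr, 23.9, 25.1, and 30.8 at 24 hr, and 28.2, 28.9, and 26.0 at 48 hr. The dip of −1.33 ± 0.13 (−1.13 without the low-exon library) was followed by values that overlapped 0 hr, with changes of −0.10 and −0.08 that did not pass. The *Jak3* levels at 0 hr of the 2 lines did not overlap, and this difference between lines was not tested.

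*Tyk2* was the least abundant JAK mRNA in most groups. In WT cells of the *Stat5b* line it had an RPKM of 18.4, 19.8, and 18.9 at 0 hr and 14.2, 13.7, and 15.1 at 48 hr, a fall of 0.58 on the log2 scale (adjusted p = 2.56e-05, edgeR). The 24 hr change was −0.33 (adjusted p = 0.0116, edgeR), a call lost without any 1 of 3 libraries (adjusted p up to 0.104). In the *Stat5a* line *Tyk2* had 14.4, 14.2, and 16.6 at 0 hr and 15.1, 14.9, and 14.4 at 48 hr. Its change of −0.23 did not pass (adjusted p = 0.064), but it passed without the low-exon library (adjusted p = 0.00114). It also passed with the replicate number as a block (adjusted p = 0.0474, all edgeR), where the numbers were taken to pair these libraries.

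**Figure D3:**
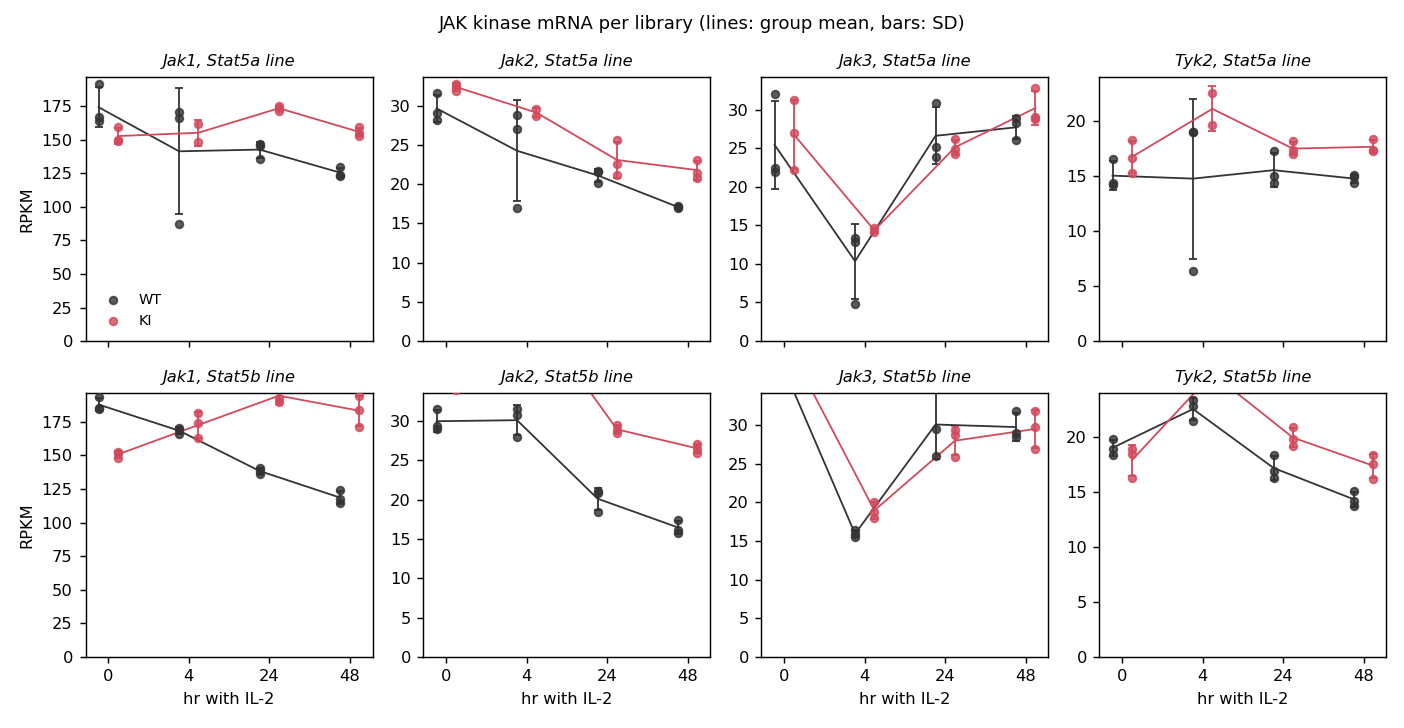
RPKM of *Jak1*, *Jak2*, *Jak3*, and *Tyk2* (y axis, each gene on its own linear scale) against hr with IL-2 (x axis, not to scale) for the *Stat5a* line (top) and the *Stat5b* line (bottom), with points for libraries, lines for group means, and bars for SD (n = 3, or 2 in *Stat5a* KI cells at 4 hr). *Jak1* declines in WT cells to between 114.3 and 129.5 at 48 hr and lies between 152.7 and 194.2 in KI cells, and *Jak3* is lowest at 4 hr in every group.

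In KI cells the response of several members was altered. At 4, 24, and 48 hr, 6, 5, and 5 of 7 members passed against 0 hr in *Stat5a* KI cells (50.4%, 57.5%, and 62.3% of all genes) and 5, 6, and 5 in *Stat5b* KI cells (48.5%, 47.9%, and 51.6%). *Pim2* still rose in *Stat5b* KI cells, by 0.59, 1.31, and 1.55 at 4, 24, and 48 hr, from an RPKM of 27.5, 28.6, and 26.4 at 0 hr to 50.3, 48.7, and 46.4 at 4 hr, 76.1, 78.7, and 72.0 at 24 hr, and 98.8, 93.0, and 84.0 at 48 hr. The step from 24 to 48 hr, 0.24 in KI cells, did not pass (adjusted p = 0.158), while that in WT cells was −0.46 (adjusted p = 0.000375, edgeR), and the difference of these steps was not tested. *Pim1* fell in *Stat5b* KI cells by 0.75, 1.47, and 1.45. *Jak1*, which fell in WT cells, had changes of −0.03 (adjusted p = 0.724), 0.21 (adjusted p = 0.00356), and 0.09 (adjusted p = 0.219) in *Stat5b* KI cells in edgeR's test. The 24 hr call was lost in another setting that leaves out no further library. The 48 hr change passed in 29 other settings, of which 28 leave out a single library (adjusted p down to 0.0257, edgeR). *Tyk2* did not pass against 0 hr in *Stat5a* KI cells at 24 hr (−0.15, adjusted p = 0.274) and 48 hr (−0.16, adjusted p = 0.227) or in *Stat5b* KI cells at 48 hr (−0.23, adjusted p = 0.0908), and passed in each without the low-exon library (adjusted p = 0.041, 0.0272, and 0.0022, edgeR).

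The difference of the responses was tested as an interaction (the change from 0 hr in KI cells minus that in WT cells). In the *Stat5b* line, 2, 4, and 4 of 7 members passed at 4, 24, and 48 hr, against 1.99%, 33.8%, and 49.4% of all genes. *Pim1* differed by −1.01 ± 0.22 at 24 hr (adjusted p = 0.000386) and by −1.01 ± 0.22 at 48 hr (adjusted p = 0.000225), and *Jak1* by 0.84 ± 0.09 and 0.93 ± 0.09 in edgeR's test. *Pim2* differed by −0.80 ± 0.15 at 4 hr (adjusted p = 0.000731) and −0.52 ± 0.15 at 24 hr (adjusted p = 0.00422), while the 48 hr difference was 0.18 ± 0.14 (adjusted p = 0.318, edgeR). *Pim3* differed by −0.96 ± 0.30 and *Jak2* by 0.38 ± 0.09 at 48 hr. The *Pim2* calls were lost with all 48 libraries (adjusted p = 1 and 0.359) and with limma, that of *Pim3* with limma, that of *Jak2* at 48 hr with all 48 libraries, and the calls of *Pim1* and *Jak1* at 24 and 48 hr with none of the 9 other settings that leave out no further library. *Jak2* at 24 hr (0.27, adjusted p = 0.0246) and *Pim1* at 4 hr (−0.81, adjusted p = 0.0425, edgeR) also passed. The first was lost without any 1 of 3 libraries, and also in another setting that leaves out no further library. The second was lost without any 1 of 31 libraries, with the replicate block, and with 4 other settings. In the *Stat5a* line 0, 1, and 1 of 7 passed, against 1.54%, 5.11%, and 28% of all genes, and both were *Jak1*, at 0.43 ± 0.09 (adjusted p = 0.0024) and 0.47 ± 0.09 (adjusted p = 8.07e-05, edgeR). The *Pim1* difference in that line turned on its spread 0 hr libraries, and was −0.37 (adjusted p = 0.422) at 24 hr and −0.49 (adjusted p = 0.0984) at 48 hr, but −0.70 (adjusted p = 0.0224) and −0.83 (adjusted p = 0.00123, edgeR) without WT replicate 2 at 0 hr. Leaving out other single libraries brought it to as little as −0.11 at 24 hr and −0.25 at 48 hr (adjusted p up to 0.814 and 0.278, edgeR). Both *Jak1* calls were lost with all 48 libraries (adjusted p = 0.868 and 0.357, edgeR). Without the low-exon library, which enters the shared estimate of the spread, 18 of the 42 member comparisons passed in place of 12, with *Pim3* at 48 hr in the *Stat5a* line (−0.69, adjusted p = 0.000142) and *Tyk2* at 48 hr in the *Stat5b* line (0.35, adjusted p = 0.00101, edgeR) among those gained. The share of all genes passing in that fit is not given here, so this rise cannot be read against it. The others gained were *Pim1* at 48 hr in the *Stat5a* line (−0.48, adjusted p = 0.0449, from 0.0984) and, in the *Stat5b* line, *Jak1* at 4 hr (0.30, adjusted p = 0.00599, from 0.0555, and passing in 36 other settings in all, DESeq2 included), *Pim3* at 24 hr (−0.62, adjusted p = 0.000381, from 0.111), and *Tyk2* at 24 hr (0.34, adjusted p = 0.00203, from 0.102, edgeR).

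**Figure D4:**
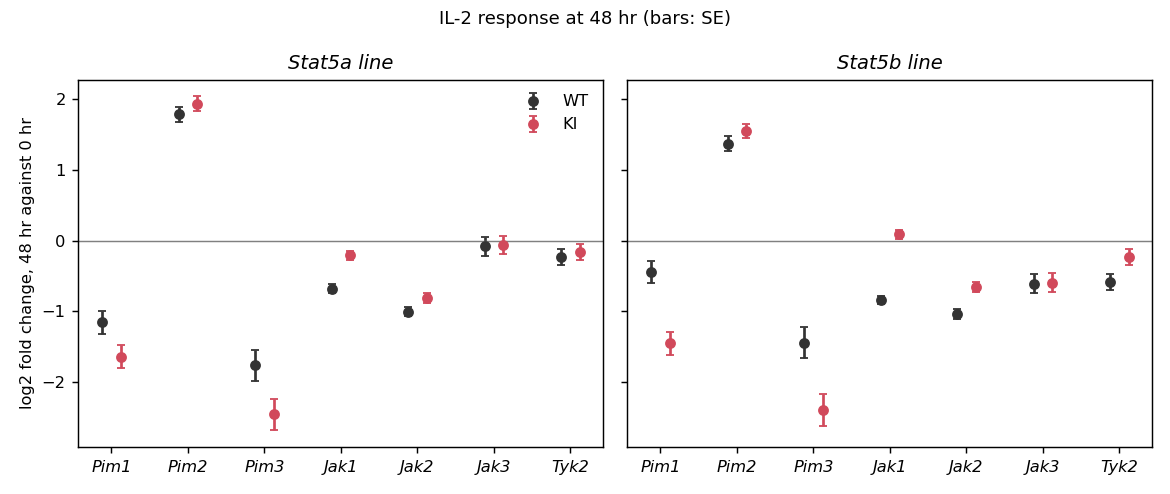
Log2 fold change from 0 to 48 hr with IL-2 (y axis) for the 7 genes (x axis) in WT and KI cells of each line, with SE bars from edgeR. In the *Stat5b* line *Pim1* and *Pim3* lie lower and *Jak1* and *Jak2* higher in KI than in WT cells, while the *Jak3* points nearly coincide at −0.61 and −0.59.

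At matched times, *Pim1* (4 to 48 hr), *Pim2* (0 to 24 hr), and *Pim3* (24 and 48 hr) were lower in *Stat5b* KI cells, while *Jak2* was higher at all times and *Jak1* at 24 and 48 hr. At 0, 4, 24, and 48 hr, 3, 3, 5, and 4 of the 7 members passed, against 22.9%, 27.3%, 50.4%, and 63.6% of all genes. At 48 hr 2 were higher and 2 lower, against 33.1% and 30.5% of all genes. These comparisons share libraries with those against 0 hr above.

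*Pim2* showed the largest difference, at 4 hr, where KI libraries had an RPKM of 50.3, 48.7, and 46.4 against 96.7, 98.1, and 112.96 in WT. The lowest WT library lay well above the highest KI library. The change was −1.19 ± 0.10 (2.29-fold lower, adjusted p = 7.06e-11), and it was −0.39 ± 0.10 at 0 hr (adjusted p = 0.0049), −0.92 ± 0.10 at 24 hr (adjusted p = 2.14e-09), and −0.21 ± 0.10 at 48 hr (adjusted p = 0.0652) in edgeR's test. The RPKM libraries overlapped at 48 hr. The 48 hr difference lay near the threshold, and passed in 34 other settings, among them DESeq2 and the fit without the low-exon library (adjusted p = 0.0207, edgeR). *Pim1* had 129.5, 131.3, and 112.2 in KI libraries against 202.02, 184.9, and 178.8 in WT at 4 hr, 72.4, 70.5, and 72.7 against 131.8, 133.2, and 134.8 at 24 hr, and 77.7, 76.1, and 70.0 against 127.9, 130.1, and 142.6 at 48 hr. The genotypes did not overlap at any of these times, with changes of −0.72 ± 0.16, −0.92 ± 0.16, and −0.92 ± 0.16, whereas at 0 hr the change was 0.09 ± 0.16 (adjusted p = 0.721, edgeR). *Pim3* had 7.55, 8.27, and 6.53 in KI against 15.8, 14.9, and 16.5 in WT libraries at 48 hr. It was the largest difference at that time among the 7 genes, at −1.15 ± 0.22 (2.23-fold lower, adjusted p = 1.93e-05), after −0.82 ± 0.22 at 24 hr (adjusted p = 0.00175, edgeR). At 4 hr its difference was −0.39, with an adjusted p of 0.183, or of 0.00263 without the low-exon library (edgeR).

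*Jak1* at 48 hr had an RPKM of 194.2, 184.1, and 171.5 in *Stat5b* KI against 117.4, 114.3, and 124.02 in WT libraries. The genotypes were well apart, and the change was 0.55 ± 0.06 (adjusted p = 7.07e-10, edgeR). At 0 hr the order was the opposite, with 152.5, 147.8, and 151.99 in KI against 185.4, 193.7, and 184.6 in WT libraries (−0.38 ± 0.06, adjusted p = 2.44e-05, edgeR), at 4 hr the change was −0.08 (adjusted p = 0.365, edgeR), and at 24 hr it was 0.46 ± 0.06. *Jak2* was higher in *Stat5b* KI cells at all times, with 26.5, 27.1, and 26.0 against 16.2, 15.8, and 17.4 at 48 hr, and the difference was 0.23, 0.41, 0.50, and 0.61 (SE 0.07 each) from 0 to 48 hr. The 0 hr call (adjusted p = 0.0101, edgeR) was lost without any 1 of 4 libraries at 0 hr of the *Stat5b* line. With all 48 libraries, all 3 calls of the *Stat5b* line at 0 hr were lost (*Jak1*, *Jak2*, and *Pim2*, adjusted p = 0.19, 0.569, and 0.345), and *Pim1* and *Jak2* at 4 hr and *Jak1* at 24 hr moved just past the threshold (adjusted p = 0.0554, 0.0762, and 0.0597, edgeR).

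In the *Stat5a* line fewer member comparisons passed. At 0, 4, 24, and 48 hr, 1, 0, 2, and 4 of 7 passed, against 3.44%, 24.6%, 18.5%, and 44.3% of all genes, and at 48 hr 2 were higher and 2 lower, against 21.5% and 22.8%. *Pim3* had 9.78, 9.12, and 8.43 in KI against 13.1, 14.6, and 14.6 in WT libraries at 48 hr, without overlap (−0.68 ± 0.21, adjusted p = 0.00914, edgeR). *Jak1* had 159.2, 155.3, and 152.7 against 129.5, 124.01, and 122.9 (0.26 ± 0.06, adjusted p = 0.000591) and *Jak2* 23.1, 20.8, and 21.4 against 17.1, 16.9, and 17.2 (0.30 ± 0.07, adjusted p = 0.000321, edgeR). *Pim1* had 97.9, 103.4, and 98.5 against 122.3, 129.1, and 128.1, again without overlap, at −0.39 ± 0.16 (adjusted p = 0.0406, edgeR). That call was lost without KI replicate 1 or WT replicate 1 or 3 at 48 hr (adjusted p up to 0.0641). At 24 hr *Jak1* was higher (0.22, adjusted p = 0.00995) and *Pim2* lower (−0.30, adjusted p = 0.0364), with the *Jak1* call lost without WT replicate 2 at 24 hr (adjusted p = 0.0711) and the *Pim2* call without any 1 of 5 libraries at 24 hr (adjusted p up to 0.0923, edgeR). At 48 hr the calls of *Jak1* and *Jak2* were lost with all 48 libraries (adjusted p = 0.46 and 0.292, edgeR), that of *Pim3* with limma (adjusted p = 0.0783), and that of *Pim1* with both (adjusted p = 0.185 and 0.199). Both 24 hr calls were lost with both settings too. *Jak1* at 4 hr was at −0.11 (adjusted p = 0.233), and at −0.19 (adjusted p = 0.0347, edgeR) without the low-exon library. The one call at 0 hr, *Jak1* at −0.21 (adjusted p = 0.0461), was lost without any 1 of 12 libraries (adjusted p up to 0.252, edgeR).

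*Jak3* and *Tyk2* passed in none of the 8 comparisons of KI with WT cells. *Jak3* changes were −0.15 to 0.26 and *Tyk2* changes −0.15 to 0.31, with both upper ends in the *Stat5a* line at 4 hr, where they were 0.06 and 0.08 without the low-exon library. At 48 hr *Jak3* had 31.9, 29.8, and 26.9 in *Stat5b* KI against 28.5, 29.0, and 31.8 in WT libraries, which overlapped. *Tyk2* had 18.4, 17.6, and 16.2 against 14.2, 13.7, and 15.1, with no overlap, and 18.4, 17.3, and 17.4 against 15.1, 14.9, and 14.4 in the *Stat5a* line. Its changes at 48 hr were 0.20 ± 0.11 and 0.21 ± 0.11 (adjusted p = 0.121 and 0.139). The spread of *Tyk2* in the shared fit takes in the low-exon library, without which the SE was 0.06 in both and the adjusted p 0.00519 and 0.0058, and the *Stat5b* line difference of 0.19 at 24 hr also passed (adjusted p = 0.00964, edgeR). Without that library 19 of the 28 *Stat5b* line comparisons passed in place of 15, and 9 of the 28 *Stat5a* line comparisons in place of 7. The share of all genes passing without it is not given here.

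**Figure D5:**
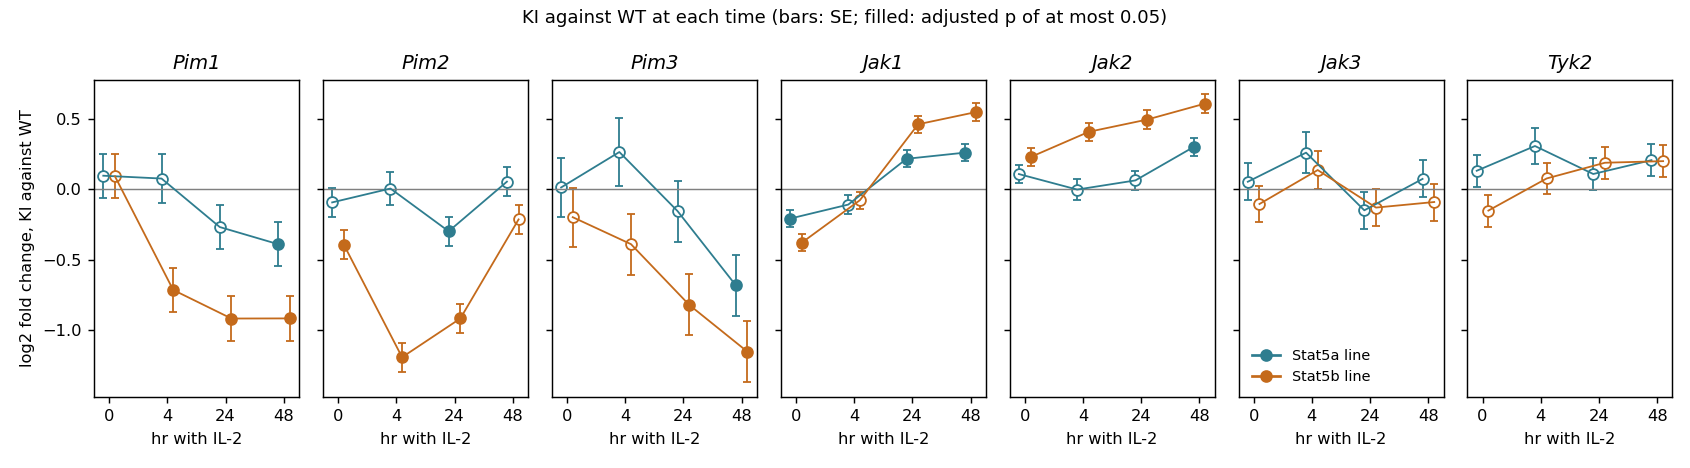
Log2 fold change of KI against WT cells (y axis) for each gene at 0, 4, 24, and 48 hr with IL-2 (x axis, not to scale), in the *Stat5a* and *Stat5b* lines, with SE bars from edgeR and filled points for an adjusted p of at most 0.05. *Pim2* is lowest at 4 hr in the *Stat5b* line (−1.19), *Pim3* at 48 hr (−1.15), and *Jak1* runs from −0.38 to 0.55.

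The KI effects of the lines were then compared directly, as the KI effect in the *Stat5b* line minus that in the *Stat5a* line. At 0, 4, 24, and 48 hr, 0, 3, 4, and 2 of 7 members passed, against 0.193%, 10.9%, 14.1%, and 11.0% of all genes. At 4 hr *Pim2* differed by −1.20 ± 0.15 (adjusted p = 1.18e-05), and by −1.04 (adjusted p = 5.1e-06) without the low-exon library, while *Jak2* differed by 0.41 ± 0.10 (adjusted p = 0.0124, and 0.0684 without KI replicate 1 of the *Stat5a* line, edgeR). The 4 hr difference of *Pim1*, −0.79 ± 0.23 (adjusted p = 0.0283), was −0.59 without the low-exon library and no longer passed (adjusted p = 0.112, edgeR). At 24 hr the differences were −0.62 ± 0.14 for *Pim2* and 0.43 ± 0.09 for *Jak2*, with *Pim1* at −0.65 (adjusted p = 0.0432) and *Jak1* at 0.25 (adjusted p = 0.0494) close to the threshold of edgeR's test. These last calls were lost without any 1 of 28 and of 16 libraries (adjusted p up to 0.112 and 0.0874, edgeR), and *Pim3* at 24 hr (−0.67, adjusted p = 0.146) passed without the low-exon library (adjusted p = 0.000683, edgeR). At 48 hr *Jak1* (0.29) and *Jak2* (0.31) passed, but lost the call without any 1 of 2 and of 3 libraries (adjusted p up to 0.081 and 0.064), and *Pim1* (−0.53, adjusted p = 0.122) and *Pim3* (−0.47, adjusted p = 0.355) did not, although both passed without the low-exon library (adjusted p = 0.049 and 0.017, edgeR).

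Partners of these kinases were examined at 48 hr as 4 lists, read against 34.1% of all genes higher and 37.7% lower with IL-2 in *Stat5a* line WT cells, and 33.1% and 36.8% in those of the *Stat5b* line. Of 16 cytokine receptor chains that bind JAKs, the rises and falls numbered 7 and 5 in the first line and 6 and 8 in the second (median −0.09 and −0.13, all genes −0.12 and −0.13). *Il12rb2*, a chain of the IL-12 receptor, rose most (3.54 and 3.55), and *Il9r*, which binds IL-9, fell most (−4.83 and −4.85). Between genotypes the same 2 chains were the extremes, with *Il9r* higher (2.54 and 4.81) and *Il12rb2* lower (−1.49 and −2.53) in *Stat5a* and *Stat5b* KI cells, and 5 chains higher and 4 lower in the first and 6 and 6 in the second, where 21.5% and 22.8%, and 33.1% and 30.5%, of all genes were higher and lower. *Il9r* was already higher at 0 hr (1.51 and 2.73), when 2 chains were higher and 0 lower in *Stat5a* KI cells, and 2 higher and 8 lower in *Stat5b* KI cells, with *Il2rb*, the β chain of the IL-2 receptor, lowest (−0.88). At 0 hr 3.44% and 22.9% of all genes passed in either direction. Of 7 STAT genes, 4 rose and 3 fell in the first line and 3 and 3 in the second, with *Stat6* (−0.43) or *Stat5b* (−0.63) the largest fall. In KI cells of each line *Stat5b* mRNA alone among the STAT genes passed, at 0.33 and 0.47.

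Of 17 feedback inhibitors of JAK-STAT signaling, 5 rose and 5 fell in WT cells of the *Stat5a* line, and 6 rose and 4 fell in the *Stat5b* line. *Socs2* rose most in the first (3.28) and *Cish*, a classical STAT5 target, in the second (3.61), while *Socs3* fell most in both (−0.96 and −1.48). In KI cells 2 were higher and 5 lower in the *Stat5a* line, and 4 higher and 8 lower in the *Stat5b* line (all genes 21.5% and 22.8%, and 33.1% and 30.5%), with medians of −0.04 and −0.10 (all genes 0.04 and 0.10). *Socs2* was lowest in *Stat5a* KI (−1.72) and *Cish* in *Stat5b* KI cells (−2.54), and *Pias3*, an inhibitor of STAT3, was highest in both (0.54 and 0.48). Of 11 PIM substrates, 3 rose and 4 fell in WT cells of either line, with *Cdc25c*, a phosphatase of mitotic entry, highest (4.11 in both) and the chemokine receptor gene *Cxcr4* lowest (−2.64 and −2.17). In KI cells 3 were higher and 4 lower in either line, to be read against the same shares of all genes. *Cdkn1a*, which encodes the cell cycle inhibitor p21, was lowest in both (−1.33 and −1.79), and the highest were *Cxcr4* (0.62) in *Stat5a* KI and *Cdkn1b*, which encodes the inhibitor p27, in *Stat5b* KI cells (1.34).

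The genes whose pattern was most like that of each member were found by Pearson's r over the 16 group means of log2 CPM, among 7706 genes with a mean RPKM of at least 5, and are a description. The groups share the time course, so these 16 points are not independent. For *Pim2* they were *Ccnd2* (r = 0.979), which encodes cyclin D2, *Gpatch1* (0.967), and *Xndr* (0.967). *Ccnd2* also ranked first by Spearman's rho (0.974), while *Gpatch1* ranked 83 by it. Of the 21 genes named, 7 were among the first 3 by Spearman's rho and 12 over the 47 libraries. For *Pim1* they were *D1Ertd622e* (0.959), *Nfkbib* (0.955), an inhibitor of NF-κB, and *Traf4* (0.942), and for *Pim3* *Bloc1s4* (0.991), *Abt1* (0.990), and *Siah2* (0.988). *Jak1* was closest to *Nlk* (0.969), a serine/threonine kinase, *Slc26a11* (0.945), and *Nckap5l* (0.931). *Jak2* was closest to *Fam46c* (0.973), *Akap2* (0.968), and *Slc8b1* (0.964), and *Tyk2* to *Adck4* (0.936), *Mtfr1l* (0.914), and *Fam134a* (0.912). For *Jak3* the first was *Insl3* (0.977), the gene that overlaps it (with a Spearman's rho of 0.803, far down that ranking), followed by *Bscl2* (0.965) and *Itgb2* (0.956), which encodes the β2 integrin chain. Among the members themselves, r over the 16 groups was −0.58 for *Pim1* with *Pim2*, 0.81 for *Pim1* with *Pim3*, −0.75 for *Pim2* with *Pim3*, and 0.72 for *Jak1* with *Jak2*.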

How the data were processed

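RNA-seq (50 bp reads) was analysed in 47 of 48 libraries. Per the labels and the study's methods, the authors aligned reads to mm10 (the submitters' processing notes name Bowtie2 2.2.6, TopHat2 2.0.11, SAMtools 0.1.8, and bedtools 2.25.0), counted reads on the exons of 31682 RefSeq transcripts, and deposited a read count and an RPKM for each. The counting program is not given in the sources used here. The RPKM are the authors' values, and a level is compared between genes only as RPKM, which is per length. RPKM is scaled to all mapped reads, whose share on the transcripts used was 44.86% to 84.43% over the 47 libraries. A level compared between groups as RPKM takes in that share.

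The longest transcript of each of 23992 symbols was used. Depth was 17369112 to 60200653 reads, and members held 134 (*Pim3*) to 84903 (*Jak1*) reads per library. Counts were filtered (minimum count 10), scaled by TMM, and fitted with the 16 groups in one model in edgeR 4.0.16 (quasi-likelihood, R 4.3.3), with Benjamini-Hochberg adjustment over 15566 genes and a threshold of 0.05. The same step was tested on simulated data. Replicate 3 of *Stat5a* KI cells at 4 hr was left out. It had 1028515 reads on the transcripts used, 5.68% of its 18122792 mapped reads. The text names the 7 members, the 3 genes most like each over 16 group means, the largest rise and fall at 48 hr in each pathway list, and *Stat5a* and *Stat5b*. One result that this rule would name is not reported here. The members and lists were chosen with earlier results of these data known. Some list genes outside this rule, such as marker genes, are named as the most abundant.

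Replicate numbers recur across groups. The numbers were taken to pair a comparison where every correlation of the deviations of same-numbered libraries, over all genes tested, was over 0.1. Among comparisons with 3 pairs, this held only in WT cells of the *Stat5a* line. The correlations were 0.206, 0.273, and 0.419 between 0 hr and 24 hr, and 0.166, 0.117, and 0.192 between 0 hr and 48 hr. Elsewhere pairing is not excluded. In *Stat5b* KI cells replicates 1, 2, and 3 had erythroid marker sums of 534, 218, and 316 at 0 hr. At 48 hr these were 119, 64.0, and 97.3, in the same order. The labels do not say whether equal numbers mark the same mice. Alternatives were DESeq2 1.42.0, its size factors, limma 3.58.1 on log2(RPKM + 1), no filter, other transcripts, all 48 libraries, only the groups compared, a replicate block, and leaving out each library. Sequences are from RefSeq (GRCm38.p6), matched by symbol for all 7 members. Protein sequences were not used here.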

Additional observations from a re-analysis of the deposited data

Results flagged for a closer look

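The KI effect differed between the lines in 9 of 28 member comparisons, by the interaction test in edgeR (*Stat5b* line minus *Stat5a* line, log2), where 0.193%, 10.9%, 14.1%, and 11.0% of all genes passed at 0, 4, 24, and 48 hr. At 4 hr these were *Pim1* (−0.79), *Pim2* (−1.20), and *Jak2* (0.41). At 24 hr they were *Pim1* (−0.65), *Pim2* (−0.62), *Jak1* (0.25), and *Jak2* (0.43). At 48 hr they were *Jak1* (0.29) and *Jak2* (0.31). Of these calls, 6 were lost on leaving out a single library, *Pim1* at 24 hr without any 1 of 28, *Jak1* at 24 hr without any 1 of 16, *Pim1* at 4 hr without any 1 of 6, *Jak2* at 48 hr without any 1 of 3, *Jak1* at 48 hr without either of 2, and *Jak2* at 4 hr without 1. The other 3 calls, *Pim2* at 4 and 24 hr and *Jak2* at 24 hr, were lost with all 48 libraries. That fit takes back the *Stat5a* KI library at 4 hr with 5.68% of its mapped reads on the transcripts used. In it, *Jak2* at 4 hr was the call of the 9 that passed. With limma *Pim2* at 4 hr was the call of the 9 that passed. The B cell, macrophage and monocyte, and erythroid marker sums at 48 hr were higher in every KI library than in every WT library of the same line, and their part in these differences was not tested.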

How the results depend on the processing

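In the main analysis 35 and 32 of 42 comparisons with 0 hr passed in WT and KI cells, 7 and 15 of 28 comparisons of KI with WT in the *Stat5a* and *Stat5b* lines, 12 of 42 differences of response, and 9 of 28 differences between lines. With all 48 libraries the last 4 counts were 2, 9, 5, and 1. The shares of all genes passing under this and the other settings are not given here. Counts of members under them therefore cannot be read against those shares. With limma on log2(RPKM + 1), 6 differences of response and 1 difference between lines passed, and the sign turned for *Jak1* in *Stat5a* KI cells at 4 hr (0.0224) and 48 hr (0.0287) and for *Jak2* in *Stat5b* line WT cells at 4 hr (0.0069). Of 990 values of the 110 passing comparisons under 9 other settings, 891 kept direction and call, 96 lost the call, and 3 turned. Leaving out each library in turn gave counts of 32 to 36, 30 to 35, 5 to 9, 14 to 19, 10 to 18, and 6 to 11, with no sign turned in 5170 values, and the highest counts came without the low-exon library. With a replicate block the counts were 36, 32, 8, 15, 12, and 9. Where the numbers were not taken to pair the libraries, the block also moved calls across the threshold. For KI against WT in the *Stat5a* line this was *Tyk2* at 4 hr (adjusted p = 0.027, edgeR). In the *Stat5b* line response these were *Tyk2* at 48 hr (adjusted p = 0.0468) and *Pim1* at 4 hr (adjusted p = 0.0513, edgeR). No other call moved beside that of *Tyk2* given above. The cause of these shifts was not tested. The SE of *Pim3* (0.22 for KI against WT in the *Stat5b* line at 48 hr) was 0.10 without the low-exon library. No limit set by read depth was tested.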
